A study of Mus musculus and other sequences with 2 samples.

Results

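The muscle miRNAs, often called myomiRs, were taken as a tissue-restricted set to compare with the miRNAs that blastocysts release, since a preimplantation embryo holds no muscle. They were chosen by name, as the mouse assays of miR-1, miR-133a, miR-133b, miR-206, miR-208 with or without a letter, and miR-499. The assays of minor arms, which the array marks with #, were left out. This gave 7 of the 750 miRNA assays, namely mmu-miR-1, mmu-miR-133a, mmu-miR-133b, mmu-miR-208, mmu-miR-208b and mmu-miR-499 on array card A and mmu-miR-206 on card B. Media conditioned by 25 CD1 blastocysts in an 8 μL microdroplet from 99 to 116 h post-hCG was profiled once with a TaqMan rodent miRNA array, together with 1 blank sample of the same media kept for 17 h without embryos. The embryos came from superovulated females aged 3 wk, the lower end of the range in the study's methods, that were mated with CD1 males. Both samples were BSA-free KSOM with 0.1% polyvinylacetate as labelled. The study itself describes the substitute for BSA as PVA, which its methods define as polyvinyl alcohol. The labels call the embryos blastocysts, and the methods describe them as morulae at the start of this culture. For each sample, 6 μL of media was lysed without RNA extraction and pre-amplified for 12 cycles. With 1 sample per group, and with the 25 embryos pooled in 1 microdroplet, no test between the 2 samples was possible, and every value below is 1 well. The value is the Ct, the cycle at which fluorescence crosses a threshold. More template gives a lower Ct, and an assay was called detected when its Ct was below 35, without the further filter on fluorescence height that the study used. The Ct of different assays also depends on how efficiently each amplifies, so that an order of Ct is not an order of amounts.

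In mammals, miR-1 and miR-133a are made together in heart and skeletal muscle, and miR-206 and miR-133b together in skeletal muscle. The transcription factors SRF, MEF2 and MyoD drive their genes, and miR-1 and miR-206 promote the differentiation of myoblasts. miR-208a, miR-208b and miR-499 lie within myosin heavy chain genes and are known for tuning the balance of fast and slow myosin in heart and slow muscle. The best known miRNAs of the blastocyst come instead from the miR-290 to miR-295 cluster.

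In the RefSeq annotation of GRCm38.p6, Mir1a-1 and Mir133a-2 are nearest neighbours inside the host gene Mir1a-1hg, and Mir206 and Mir133b are nearest neighbours inside the long non-coding RNA gene Lincmd1. Mir208a lies inside Myh6, Mir208b inside Myh7 and Mir499 inside Myh7b. The mature sequences of 5 of the 7 members are shown, all but miR-1 and miR-133a, because miR-208 and miR-208b share a seed and were split by detection. They are given 5′ to 3′ from RefSeq, the older array names without an arm being taken for the main arm, with the seed (bases 2 to 8) in capitals.
miR-206 (miR-206-3p, chr1:20679055-20679076, plus strand): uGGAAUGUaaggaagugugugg
miR-133b (miR-133b-3p, chr1:20682834-20682855, plus strand): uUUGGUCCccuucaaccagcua
miR-208 (miR-208a-3p, chr14:54949072-54949093, minus strand): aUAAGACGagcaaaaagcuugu
miR-208b (miR-208b-3p, chr14:54975710-54975731, minus strand): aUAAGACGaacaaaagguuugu
miR-499 (miR-499-5p, chr2:155622893-155622913, plus strand): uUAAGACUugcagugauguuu
The sequences of miR-208a and miR-208b have the same seed and differ at 3 of 22 positions, written G10A, A16G and C18U with the miR-208a base first and positions counted from the 5′ end. That of miR-499 shares bases 2 to 7 with both and differs from them in the last base of the seed. It matches miR-208a at 12 of 21 positions when the 5′ ends are aligned.

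In the conditioned sample, 3 of the 7 muscle miRNAs were detected, beside 37.3% of all miRNA assays. In the blank 2 were detected, beside 29.1% of all assays, and these 2, miR-206 and miR-208, were the same as those detected in both media, a class that held 23.5% of all assays. Only miR-133a was detected with embryos and not without them, beside 13.9% of all assays, and 0 of the 7 were detected in the blank only, beside 5.6%. These counts were thus close to those of the array as a whole. Without the study's filter on fluorescence height, 280 of the 750 assays were called detected in the conditioned sample and 218 in the blank. The study, with that filter and its own count of miRNAs, reported fewer in each. Whether the wells of miR-206 and miR-208 would pass that filter was not tested. The assays of miR-1, miR-133b and miR-499 were undetermined in both samples. Among mouse main-arm assays alone, 39.9% of 566 were detected in the conditioned sample and 14.1% in the conditioned sample only, a comparison added after the data were seen.

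**Figure D1:**
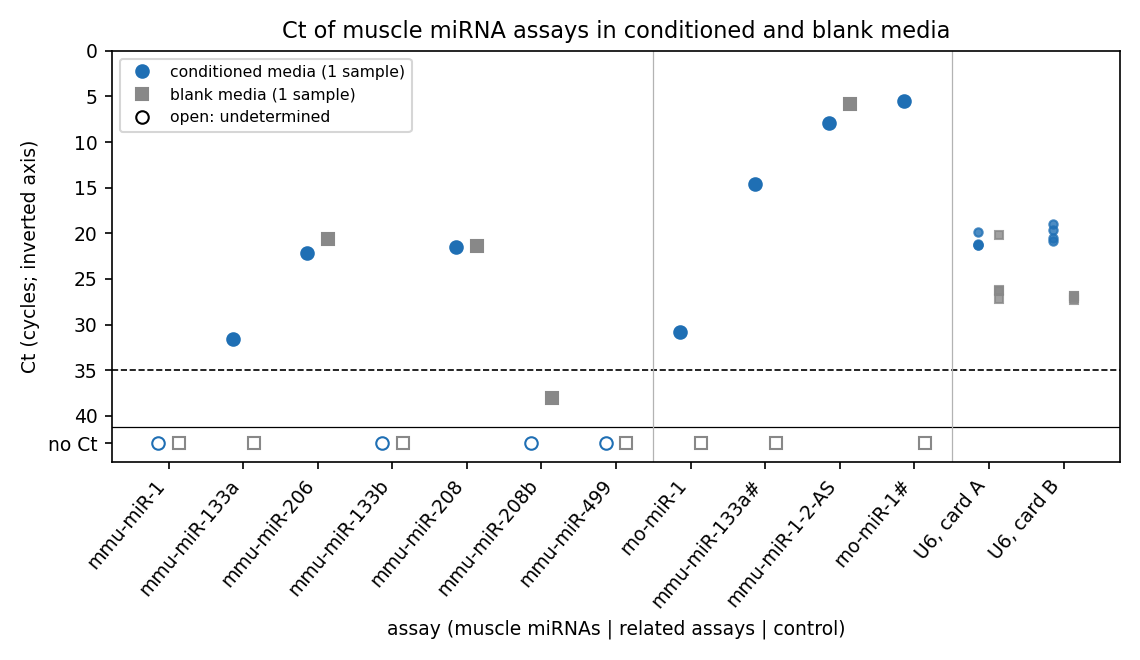
Ct in cycles on an inverted axis for the 7 muscle miRNAs, for 4 related assays and for the U6 wells of each card, in the conditioned sample (blue circles) and blank media (grey squares); each point is 1 well, open symbols are undetermined and the dashed line is the detection limit of 35. The points of miR-206 and of miR-208 lie close together in both media, whereas miR-133a has a Ct of 31.6 in the conditioned sample only.

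The error between wells was taken from the small nuclear RNA U6, spotted in 4 wells per card. On card A, the mean Ct of U6 was 20.9 ± 0.68 (SD, 4 wells) in the conditioned sample and 24.98 ± 3.22 in the blank. On card B it was 19.96 ± 0.83 and 27.0 ± 0.23. The SD of 3.22 rested on a single well at 20.2 beside 3 wells between 26.3 and 27.1, whose own SD was 0.49. The conditioned sample thus had U6 earlier by 4.08 cycles on card A, and by 7.07 on card B. The spread of U6 describes wells and not embryos or cultures.

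Of the pair made together in heart and skeletal muscle, miR-133a reached threshold at a Ct of 31.6 with embryos and gave no Ct without them, and miR-1 was undetermined in both samples. On card A, the Ct of miR-133a ranked 132 among the 149 assays detected in the conditioned sample. Among the 104 assays detected in the conditioned sample only, it ranked 79, with 25 at a later Ct, and the median of that class was 28.4. The value was therefore among the later ones of its class, and it came from 1 well without a repeat. miR-133a is not on the short list that the study drew from these samples with its filter on fluorescence height, and whether the well would pass that filter was not tested. Its paralogue miR-133b, which belongs to the same seed family, had no Ct in either sample.

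**Figure D2:**
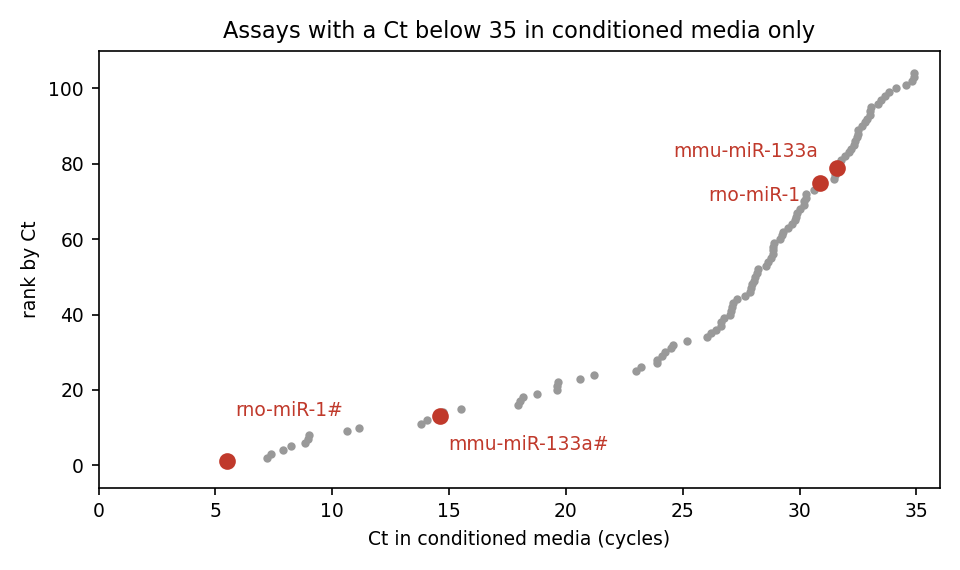
Rank against Ct in the conditioned sample for the 104 assays with a Ct below 35 in the conditioned sample only (grey points, 1 well each), with miR-133a and 3 related assays in red. The assays mmu-miR-133a and rno-miR-1 lie at ranks 79 and 75, and the minor-arm assays mmu-miR-133a# and rno-miR-1# at ranks 13 and 1.

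The skeletal muscle miRNA miR-206 had a Ct of 22.2 in the conditioned sample and 20.6 in the blank, and was thus 1.57 cycles later with embryos than without. This difference was larger than the SD of the 4 U6 wells of card B in either sample, and larger than the 2 SDs combined (0.86). Among the 82 assays of card B detected in both media, 25 had a later shift than miR-206 and 56 an earlier one, around a median of 0.25 cycles and with quartiles of -1.78 and 1.93. The shift of miR-206 was therefore within the middle range of its card. Of the 176 assays detected in both media on the 2 cards, 66 had a difference as small or smaller in size. Its genomic neighbour miR-133b, in contrast, was undetermined in both samples.

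The cardiac miRNA miR-208, which corresponds to miR-208a, had a Ct of 21.6 in the conditioned sample and 21.4 in the blank. The difference of 0.14 cycles, later in the conditioned sample, was smaller than the SD of U6 wells of card A in either sample and could not be told from the spread between wells. Leaving out the farthest U6 well of each sample, a choice made after seeing the values, gave SDs of 0.09 and 0.49, and 0.50 combined. Only 11 of the 176 assays detected in both media, miR-208 included, had a difference this small. On card A, miR-208 ranked 37 among 149 detected assays in the conditioned sample and 47 among 122 in the blank. The other myosin-hosted members did not share this pattern. miR-208b, with the same seed, was undetermined in the conditioned sample and had a Ct of 37.99 in the blank, later than the detection limit, and miR-499 had no Ct in either sample. Whether the assays of miR-208 and miR-208b each read only their own sequence was not tested.

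The wells of miR-206 and miR-208 lay 0.61 cycles apart in the conditioned sample, where miR-208 was earlier, and 0.83 cycles apart in the blank, where miR-206 was earlier. Where 2 assays of 1 name both had a Ct below 35 in the same sample, and not earlier than the earliest U6 well of 18.99, they differed by 1.25 to 7.42 cycles over 7 such pairs of wells. Both gaps between miR-206 and miR-208 were smaller than any of these differences, though the only such pair in the blank was that of miR-223, 2.18 cycles apart. As miR-206 and miR-208 are different assays on different cards, these wells cannot resolve their order in either sample. The 2 assays of miR-217 in the blank, of which 1 was earlier than any U6 well, lay further apart, at 29.4 and 14.7. The 2 muscle miRNAs did not share the earlier Ct that U6 had with embryos. Taken relative to the mean of U6 on the same card, miR-208 was 4.22 cycles later in the conditioned sample and miR-206 was 8.64 cycles later. On that scale 97 of the 176 assays, or 55.1%, were more than 5 cycles later in the conditioned sample and 3 were more than 5 cycles earlier. Without this scaling the counts were 20 later and 19 earlier.

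**Figure D3:**
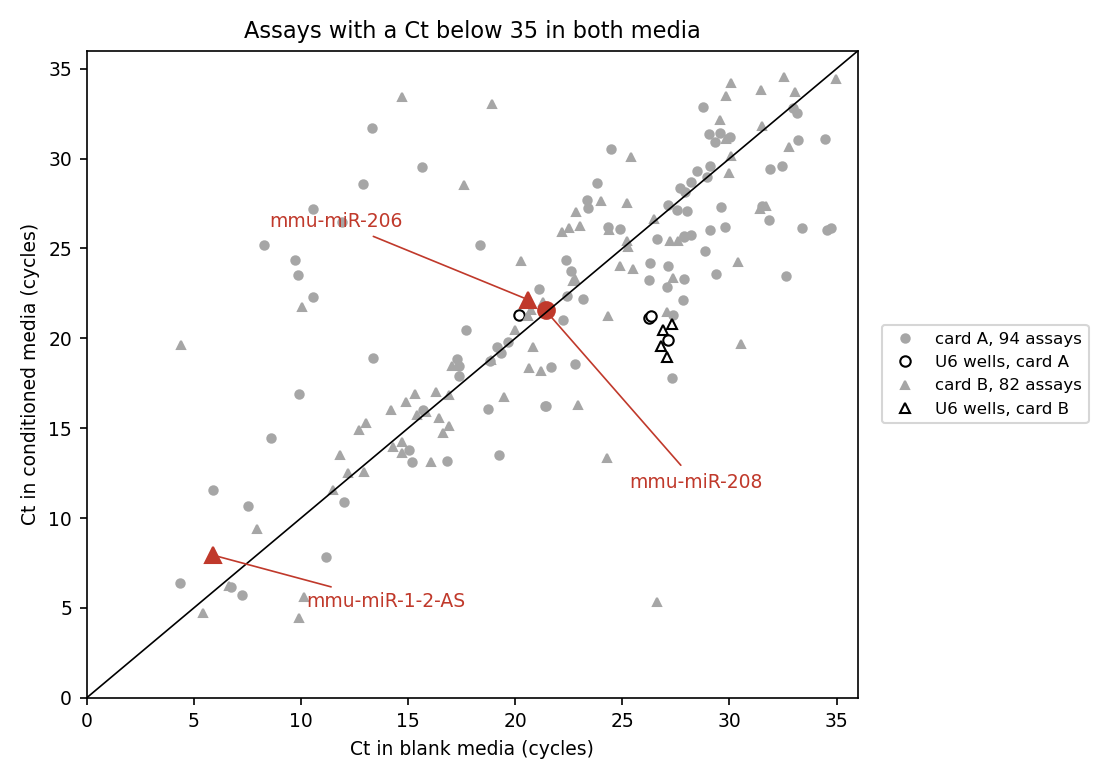
Ct in the conditioned sample against Ct in the blank, both in cycles, for the 176 miRNA assays with a Ct below 35 in both (grey, 94 on card A and 82 on card B) and for the U6 wells (open symbols); the line marks equal Ct and each point is 1 assay or well. miR-208 (0.14 cycles) and miR-206 (1.57 cycles) lie close to the line, and most U6 wells lie below it, at an earlier Ct in the conditioned sample.

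The mouse main-arm assays with Ct values nearest to miR-208, of 98 on card A with a Ct in both samples, were miR-302a at a distance of 0.97 cycles over the 2 samples, miR-425-5p at 1.23 and miR-96 at 1.28. Those nearest to miR-206, of 60 on card B, were miR-1959 at 0.59, miR-711 at 0.73 and miR-421 at 0.89. Likeness over only 2 samples is a weak description.

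A further 4 assays carried the same numbers but were outside the set, and all 4 were detected in the conditioned sample, beside 37.3% of all assays. Of these, 3 were detected there only, beside 13.9% of all assays, and 1 in both samples. The rat-named assay rno-miR-1 had a Ct of 30.9 with embryos and none in the blank, whereas the mouse assay of miR-1 had no Ct in either. The minor arm mmu-miR-133a# had a Ct of 14.6 in the conditioned sample only, which is earlier than its main arm and earlier than any U6 well. The minor arm rno-miR-1# had a Ct of 5.51 in the conditioned sample only, the lowest of all 104 assays of that class. The antisense assay mmu-miR-1-2-AS had a Ct of 7.94 in the conditioned sample and 5.88 in the blank. The last 3 lay before the earliest U6 well. In all, 78 miRNA assays in the conditioned sample and 78 in the blank had so early a Ct. By this limit, early wells were thus equal in number in the 2 samples. They were among 280 detected assays in the conditioned sample and 218 in the blank. The part of early wells in the values of these 3 assays was not tested. The values of miR-133a, miR-206 and miR-208 were all later than the earliest U6 well, which was on card B in the conditioned sample. In that sample the 3 were also later than every U6 well of their own card. In the blank, miR-206 at 20.6 was earlier than all 4 U6 wells of its card, at 26.8 to 27.3. miR-208 at 21.4 was later than the U6 well at 20.2 on its card in the blank, and earlier than the other 3, at 26.3 to 27.1.

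Of 21 names of broadly expressed miRNAs linked to muscle development, 20 matched 22 assays. In the conditioned sample 16 of the 22 were detected (72.7%, beside 37.3% of all assays) and in the blank 12 (54.5%, beside 29.1%), so that 12 were detected in both (54.5%, beside 23.5%), 4 in the conditioned sample only (18.2%, beside 13.9%) and 0 in the blank only (beside 5.6%). The 4 were miR-26a, a regulator of Ezh2, with a Ct of 29.2, miR-214, another regulator of Ezh2, with a Ct of 30.6 on card B, miR-125b with 32.1 and 1 of the 2 assays of miR-322 with 33.0. In the blank, miR-125b had a Ct of 39.2 and the other 3 had none. The first 3, unlike miR-133a, are also on the study's short list, which was drawn from these samples and is not independent evidence. The second assay of miR-214, on card A, had a Ct of 35.9 in the conditioned sample and none in the blank, and the second assay of miR-322 had none in either.

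Of the 12 detected in both media, 6 were earlier and 6 later in the conditioned sample, with a median of 0.19 cycles. miR-486, which is enriched in muscle and also abundant in red cells, had a Ct of 27.7 in the conditioned sample and 23.3 in the blank. miR-27b, a regulator of Pax3, was earlier with embryos, with a Ct of 27.4 and 31.5. miR-24 had a Ct of 25.6 and 27.9, and miR-31, a regulator of Myf5, of 26.2 and 24.3. Early wells were also found in this list, for miR-155 with a Ct of 5.74 and 7.26 and for miR-222 with 18.9 and 13.4. The remaining 6, the 3 assays of miR-29 and those of miR-27a, miR-181a and miR-378, differed by -1.33 to 1.17 cycles.

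The smooth muscle miRNAs miR-143 and miR-145, which are made from 1 transcript, had 3 assays. All 3 were detected in the conditioned sample (100%, beside 37.3% of all assays) and 2 in the blank (66.7%, beside 29.1%), so that 2 were detected in both (66.7%, beside 23.5%) and 1 in the conditioned sample only (33.3%, beside 13.9%). The assay of miR-143 on card A had a Ct of 28.9 in the conditioned sample only, and the card B assay had a Ct of 21.5 in the conditioned sample and 27.1 in the blank. miR-143 is also on the study's short list. miR-145 had a Ct of 31.7 in the conditioned sample and 13.3 in the blank, so that it was 18.4 cycles later with embryos. The direction thus differed between partners of 1 transcript, and the blank value of miR-145 was earlier than any U6 well.

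For comparison with other tissues, 14 assays of neural miRNAs and 6 of liver and pancreas miRNAs were counted in the same way. In the conditioned sample 3 neural assays (21.4%) and 1 liver and pancreas assay (16.7%) were detected, beside 42.9% of the muscle miRNAs and 37.3% of all assays. In the blank, 4 neural assays (28.6%) and 4 liver and pancreas assays (66.7%) were detected, beside 28.6% of the muscle miRNAs and 29.1% of all assays. The counts in the conditioned sample only were 1 neural assay, 0 of liver and pancreas and 1 of muscle, miR-133a, beside 13.9% of all assays. Those in the blank only were 2 neural assays (14.3%), 3 of liver and pancreas (50%) and 0 of muscle, beside 5.6% of all assays. The neural assay found with embryos only was miR-219, with a Ct of 8.97, which is earlier than any U6 well. Of the other neural miRNAs, miR-218 had a Ct of 23.3 with embryos and 27.9 in the blank, and miR-383 of 11.6 and 5.88. The neural miR-128a and miR-485-3p had a Ct of 31.1 and 8.51 in the blank and none with embryos. The pancreatic miR-217 had 1 assay at 13.6 with embryos and 14.7 in the blank and another at 29.4 in the blank alone. In the blank, miR-216b had a Ct of 31.0 and miR-375 of 34.0. With embryos, miR-375 had a Ct of 36.1 and miR-216b none. The miR-290 to miR-295 main-arm assays of mouse gave 10 of 14 detected in the conditioned sample (71.4%), all 10 in the conditioned sample only. These were miR-290-3p, miR-290-5p, miR-291-3p, miR-291a-3p, miR-291b-5p, miR-293, miR-294, miR-295 and both assays of miR-292-3p, with a Ct from 19.6 to 34.6. The assay of miR-294 also had a Ct of 37.6 in the blank, later than the limit of 35, and the others had none there. No test between lists was made, since the assays of 1 sample are not replicates.

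**Figure D4:**
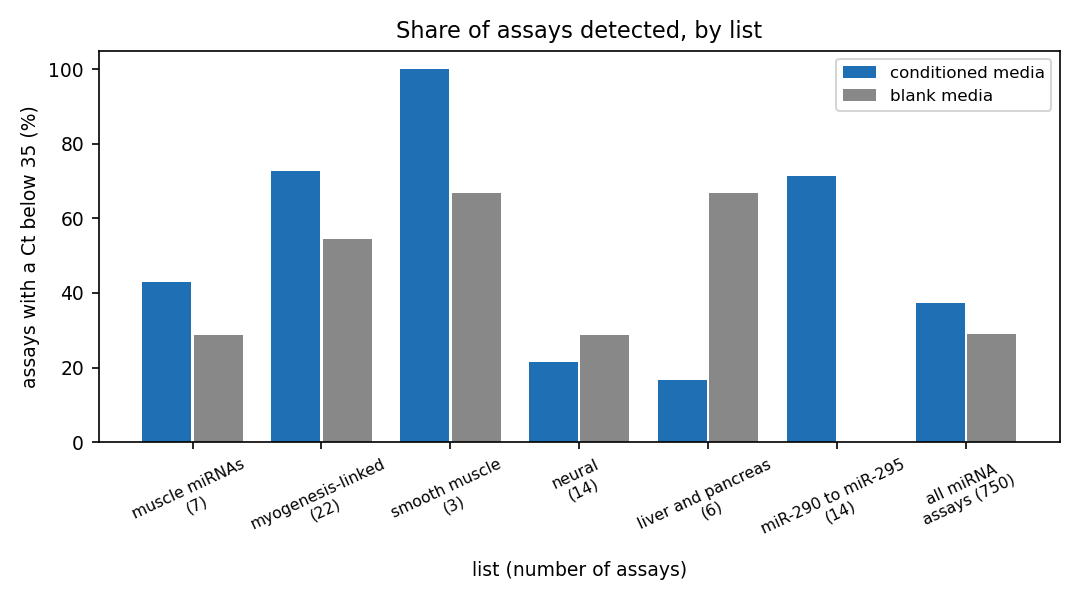
Share of assays with a Ct below 35, in percent, in the conditioned sample (blue) and blank media (grey), for each list (number of assays in brackets) and for all 750 miRNA assays; each bar comes from 1 sample. The bars of the muscle miRNAs, 42.9% and 28.6%, stand near those of all assays, 37.3% and 29.1%, whereas the miR-290 to miR-295 assays have no bar in the blank.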

How the data were processed

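Conditioned and blank media, 1 sample each, were profiled on cards A and B of the array. Per well, the authors took a Ct from QuantStudio software and deposited it as exported, with no normalization and with undetermined wells written as such. The deposited fold changes, a ratio calculated by the authors, were not used, and the fluorescence change ΔRn, on which the study also filtered, was not analysed here. Sources used here give no baseline or threshold settings.

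The 18 control wells of each sample were left out of counts, and wells without a Ct were treated as later than the limit of 35. Differences subtract the Ct of the blank from that of the conditioned sample, without normalization. Samples were grouped by their titles. The members and lists were chosen with earlier results of these data known. The assays named were every member, every assay of the same number, U6, detected members of the lists, and the 3 assays nearest to each member with a Ct in both samples and detected in both. In the lists, miR-181b and miR-488 matched no main-arm assay, and miR-124, miR-125b-5p and miR-129-5p were matched by an older name. Sequences came from RefSeq (GRCm38.p6), where 5 of the 7 members were matched. Alternatives were Ct limits of 32 and 38, any determined Ct, early wells left out, unique names, related assays added, and centring on the card median or on U6. The counting was first tested on simulated data. Python 3.11.15, pandas 2.3.3, numpy 2.4.6 and matplotlib 3.10.9 were used.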

Additional observations from a re-analysis of the deposited data

Results flagged for a closer look

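Signal in conditioned media and none in blank media was found in 3 assays outside the muscle set, with a Ct of 30.9 for rno-miR-1, 14.6 for mmu-miR-133a# and 5.51 for rno-miR-1#, each in 1 well. Among the 4 U6 wells of card A, 1 stood apart in each sample, at 19.9 in conditioned media and at 20.2 in blank media, by a criterion that chance meets in about 1 of 20 groups. The 4 wells of each group are wells of 1 sample and not separate samples.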

How the results depend on the processing

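Each value is 1 well of 1 sample, so that no error between cultures is known and counts of 7 assays move in steps of 1. Of 32 alternative values, 22 stayed within 1.5 times the count or within the combined SD of U6 wells. With the minor-arm, antisense and rat assays added, 7 of 11 assays were detected in conditioned media and 4 in conditioned media only, beside 37.3% and 13.9% of all assays. Of the 4 added assays, 3 were wells earlier than any U6 well, at 14.6, 7.94 and 5.51. At a Ct limit of 38 or with any determined Ct, 1 muscle miRNA, miR-208b, was detected in blank media only. The Ct in conditioned minus blank media was 4.22 for miR-208 and 8.64 for miR-206 relative to the mean of U6, 5.23 and 8.53 relative to its median, and 5.48 and 8.22 without the farthest wells, which was added after the values had been seen. Both differences were also positive when centred on the card median. No paired analysis was possible because each group had 1 sample.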
